A study of Mus musculus with 4 samples.

Results

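Footprint counts of 5 genes for proteins of the large ribosomal subunit were examined in mouse embryonic fibroblasts, Rpl6, Rpl12, Rpl13a, Rpl39 and Rpl41. They were taken by name as 5 rows of a table of 4878 genes, each with a value for the coding sequence and another for the leader, the 5' untranslated region (5' UTR) upstream of the start codon. The pick includes Rpl39 and Rpl41, whose reading frames are very short, beside the longer frames of Rpl6, Rpl12 and Rpl13a. Fibroblasts at passages 5 to 8 were transfected by lipid with a negative control siRNA or with the siRNA labelled Si-eIF1A (X+18), 2 libraries each, so both groups went through transfection. In ribosome profiling, lysates are treated with RNase I and the RNA fragments that ribosomes protect, the footprints, are sequenced. The labels do not say whether the replicates were separate cultures, and p-values here cover the spread between these libraries alone, which may be technical.

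The large subunit joins amino acids into the protein chain, and its proteins surround and stabilise the ribosomal RNA that catalyses this step. Cells make these proteins in matched amounts, and their mRNAs are known for a terminal oligopyrimidine tract, a run of C and T bases at the very start of the mRNA through which growth signals set their translation together. eIF1A binds the small subunit during initiation, where it promotes scanning along the leader and selection of the start codon. Footprints on leaders and on coding sequences are given apart, and leader footprints are not read here as a measure of scanning. Rpl12 sits at the base of the stalk where elongation factors dock. Rpl6 lies on the outer face of the subunit. Rpl13a also takes part, once released from the ribosome, in silencing inflammatory mRNAs. Rpl39 lines the exit tunnel of the nascent chain, and Rpl41, among the shortest proteins known, bridges the interface between the subunits.

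The 30 bases around the annotated start of each mRNA are shown because the genes moved together and this is where a terminal oligopyrimidine tract would lie. The sequences are RefSeq's (GRCm38.p6, strand of the gene), from 10 bases before the annotated start to 20 bases from it on, with the longest run of C or T bases in capitals. All 5 genes matched the RefSeq table.
Rpl6 (chr5:121204491-121204520, + strand): aCCTCCCgtcattgcttatagaccggaagc
Rpl12 (chr2:32961702-32961731, + strand): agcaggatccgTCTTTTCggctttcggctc
Rpl13a (chr7:45128726-45128755, - strand): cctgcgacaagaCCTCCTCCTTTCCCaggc
Rpl39 (chrX:37085203-37085232, - strand): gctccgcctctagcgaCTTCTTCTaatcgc
Rpl41 (chr10:128549149-128549178, - strand): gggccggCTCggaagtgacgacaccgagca
The run was 14 bases long in Rpl13a, 8 in Rpl39, 7 in Rpl12, 6 in Rpl6 and 3 in Rpl41. It began 3 bases into the annotated mRNA in Rpl13a, counted from 1 at the start, at base 2 in Rpl12 and at base 7 in Rpl39, while in Rpl6 and Rpl41 it lay before the annotated start. Searched on the strand of the gene alone, a run of at least 7 such bases stood in 17.9% of all 32851 annotated starts and in 45.7% of the 46 starts of large-subunit protein genes. These are matches of letters at annotated starts, and a start that cells use may differ from them. A link between these runs and the changes below was not tested.

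In RefSeq's GRCm38.p6 annotation, the same release of the mouse genome as the mm10 build named in the submitters' processing notes, the genes lie on different chromosomes. Rpl6 spans 121204501 to 121209241 on chromosome 5, Rpl12 32961712 to 32964045 on chromosome 2, Rpl13a 45125563 to 45128745 on chromosome 7, Rpl39 37082518 to 37085222 on chromosome X and Rpl41 128548110 to 128549168 on chromosome 10. Other annotated genes lie within the span of 4 of them. Rpl13a holds 5, the small nucleolar RNAs Snord32a, Snord33, Snord34 and Snord35a and a microRNA, Rpl12 holds Snora65, Rpl39 holds Snora69 and Rpl6 holds 1 small nucleolar RNA. The table also names 2 copies of Rpl12, 1 of Rpl13a and 1 of Rpl39 as pseudogenes, and ribosomal protein genes have many more near-identical copies under other names. The sources used here do not say how reads that fit several copies were counted, which leaves single values uncertain to that extent.

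The listed genes held 617663 and 547916 reads in the controls and 458191 and 280649 in the knockdown libraries, 5' UTR and coding together. Reads on 5' UTRs made up 11.6% and 13.7% of them in the controls and 19.95% and 32.4% in the knockdown libraries. Of 12 fibroblast markers Vim, Fn1 and S100a4 were among the listed genes, and the other 9 were not analysed here. Their coding levels summed to 3853 and 5504 normalized reads in the controls, mostly Fn1, and to 3454 and 2871 in the knockdown libraries. Among them S100a4 fell, from 142 ± 10.6 to 17.9 ± 0.530 normalized coding reads (SD, n = 2, log2 change -2.92, limma adjusted p = 2.4e-05). Vim, from 580 ± 129 to 841 ± 546 (log2 change 0.38, limma adjusted p = 0.481), did not pass. Neither did Fn1, from 3957 ± 1307 to 2304 ± 134 (log2 change -0.74, limma adjusted p = 0.113). The pericyte markers Notch3 and Cspg4 summed to 337 and 548 normalized coding reads in the controls and to 106 and 123 in the knockdown libraries. The neuronal marker Map2 had 65.9 and 55.3 against 15.3 and 6.38. Notch3, Cspg4 and Map2 each passed downwards, with log2 changes of -2.45, -1.68 and -2.49 (limma adjusted p = 0.000147, 0.00113 and 0.000648). Of the epithelial list only Dsp was among the listed genes. It had 109 and 146 normalized coding reads in the controls and 82.4 and 71.8 in the knockdown libraries (limma adjusted p = 0.0876). No marker on the endothelial and leukocyte lists was among the listed genes. The part of such cells in the results below was not tested. The genes for eIF1A itself, Eif1ax and Eif1a, were not analysed here, so the knockdown was not checked.

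Coding footprints of all 5 genes were more frequent in the knockdown libraries, by 3.26-fold for Rpl39 up to 5.87-fold for Rpl12. Without RNA-seq, which was not used here, mRNA abundance and translation both enter a footprint level. In these bulk samples, fewer cells of a type and less RNA per cell cannot be told apart. Levels are normalized reads per gene and are not set against each other between genes, since coding lengths were not used here.

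Rpl12, at the base of the stalk, had 39.4 and 40.6 normalized coding reads in the controls, replicate 1 given first here and below, and 256 and 214 after knockdown. The controls lay close together and both knockdown libraries stood far above them, a rise from 40.02 ± 0.858 to 235 ± 30.0 (SD, n = 2). The log2 change was 2.52 ± 0.29 (SE, limma adjusted p = 4.45e-05), the highest of the 5 genes and rank 23 among 4619 genes tested.

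Rpl41, the bridge protein with the very short frame, had 274 and 212 normalized coding reads in the controls and 1004 and 1539 in knockdown replicates 1 and 2. It was the only one of the 5 genes whose coding level was higher in knockdown replicate 2 than in replicate 1. Its log2 change was 2.36 ± 0.31 (SE, limma adjusted p = 9.67e-05), from 243 ± 44.3 to 1271 ± 378 (SD, n = 2). Between the knockdown replicates it differed by 0.62 on the log2 scale (replicate 2 over 1), where the median of all genes tested was -0.29 and the quartiles were -0.71 and 0.06.

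Rpl6, on the outer face of the subunit, had 269 and 219 normalized coding reads in the controls and 1301 and 753 in the knockdown libraries. The lower knockdown library was still 2.80 times the higher control. The log2 change was 2.02 ± 0.32 (SE, limma adjusted p = 0.000387).

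Rpl13a, which hosts small nucleolar RNAs in its introns, had 133 and 127 normalized coding reads in the controls and 611 and 399 in the knockdown libraries. The groups did not overlap, and the knockdown libraries differed from each other by more than the controls did. The log2 change was 1.92 ± 0.30 (SE, limma adjusted p = 0.000361).

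Rpl39, the exit tunnel protein, had 35.1 and 43.2 normalized coding reads in the controls and 152 and 104 in the knockdown libraries. Its log2 change of 1.66 ± 0.32 (SE, limma adjusted p = 0.00153) was the lowest of the 5 genes, at rank 157 of 4619. The depth behind it was 49 and 50 reads in the controls and 149 and 65 in the knockdown libraries, among the lowest of the 5 genes together with Rpl12, which had 55, 47, 252 and 134.

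**Figure D1:**
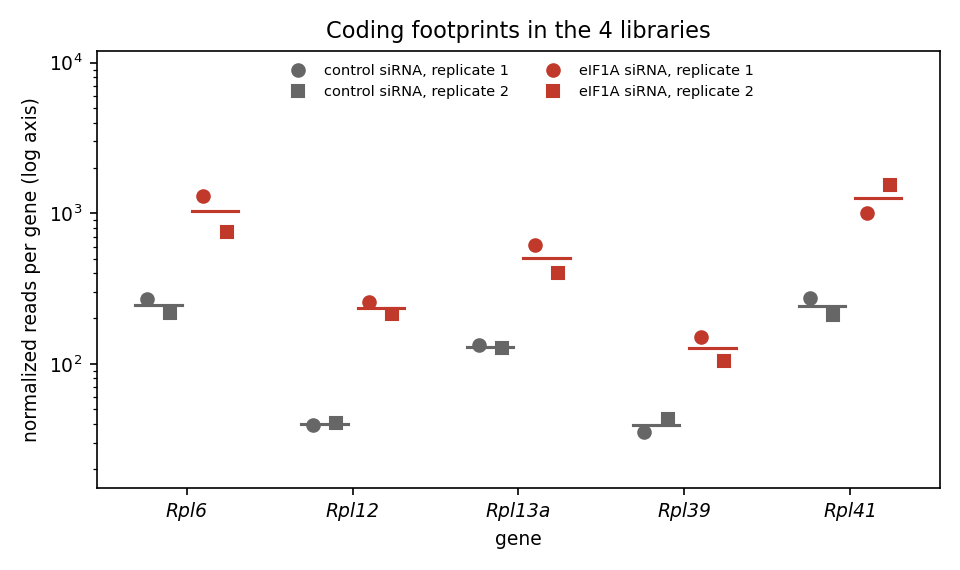
Normalized coding reads of the 5 genes (log axis) in each library, with circles for replicate 1, squares for replicate 2 and a line at each group's mean, n = 2 (grey, control siRNA; red, eIF1A siRNA). In every gene the 2 knockdown values lie above the controls, and Rpl41 alone has its higher knockdown value in replicate 2, at 1539 against 1004.

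All 5 genes thus passed upwards, where 10.6% of the 4619 genes tested did so and 18.7% fell, and in all 5 the groups did not overlap, with the knockdown libraries higher, as in 26% of genes. All genes tested had a median log2 change of -0.16, and relative to it the 5 changes were 2.68 for Rpl12, 2.52 for Rpl41, 2.18 for Rpl6, 2.08 for Rpl13a and 1.82 for Rpl39. TMM factors put the median of all genes at -0.25 and quantile normalization at 0.00, and over both settings the 5 genes kept log2 changes of 1.57 to 2.71. As a share of the listed coding reads, which does not depend on the authors' scaling, the 5 genes together took 1.92 and 1.57 of every 1000 reads in the controls and 8.91 and 9.94 in the knockdown libraries. A fit that leaves out 1 control takes its spread from the knockdown pair only and assumes that the lone control varies like it. Without control replicate 2 all 5 calls ended though the changes stayed about as large: limma's adjusted p was 0.0517 for Rpl12 and Rpl41, 0.0706 for Rpl13a, 0.0730 for Rpl6 and 0.0919 for Rpl39, at log2 changes of 1.81 to 2.54, and 11 genes in all passed in place of 1352. Without control replicate 1, Rpl39 lost its call (adjusted p = 0.0652, log2 change 1.52) and the other 4 genes kept theirs.

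Footprints on the 5' UTR split the 5 genes by read number, and leader lengths were not used here. Rpl39, Rpl41 and Rpl12 had far more of them in the knockdown libraries, by 30.1-fold, 28.5-fold and 11.97-fold, while Rpl6 and Rpl13a had at most 3 such reads in any library. The sources used here do not state whether a footprint over the start codon was assigned to the leader or to the coding sequence.

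Rpl39 had 15.05 and 5.19 normalized 5' UTR reads in the controls (21 and 6 reads) and 255 and 354 in the knockdown libraries (251 and 222 reads). The lower knockdown library was 16.97 times the higher control. The log2 change was 4.92 ± 0.48 (SE, limma adjusted p = 2.83e-21), rank 1 of 2101 genes tested for 5' UTR reads. Its place above Rpl41 depended on the controls. The log2 changes of Rpl39 and Rpl41 were 5.61 and 4.47 without control replicate 1 and 4.23 and 5.09 without control replicate 2.

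Rpl41 had 11.5 and 18.2 normalized 5' UTR reads in the controls (16 and 21 reads) and 409 and 436 in the knockdown libraries (402 and 273 reads). Here the knockdown replicates lay close together, at 422 ± 19.0 (SD, n = 2) against 14.8 ± 4.73 in the controls. The log2 change was 4.78 ± 0.46 (SE, limma adjusted p = 2.33e-21), rank 2 of 2101.

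Rpl12 had 7.88 and 24.2 normalized 5' UTR reads in the controls (11 and 28 reads) and 141 and 243 in the knockdown libraries (139 and 152 reads). Its controls differed by 1.505 on the log2 scale (replicate 2 over 1) where those of Rpl39 differed by -1.38, and in both genes the groups did not overlap. The log2 change was 3.64 ± 0.48 (SE, limma adjusted p = 1.03e-11), rank 26 of 2101.

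Rpl6 had 1 read on its 5' UTR in each control and 2 in each knockdown library, and Rpl13a had 1 and 1 against 1 and 3. The lowest value in every column of the table was 1 read, which may stand for 0 or 1 or may have been added throughout, so these leaders were at or near the floor in every library and no fold is given. Neither reached the mean of 10 normalized reads needed for the test. Coding reads were plentiful on the same mRNAs, up to 1279 in Rpl6 and 601 in Rpl13a in knockdown replicate 1.

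**Figure D2:**
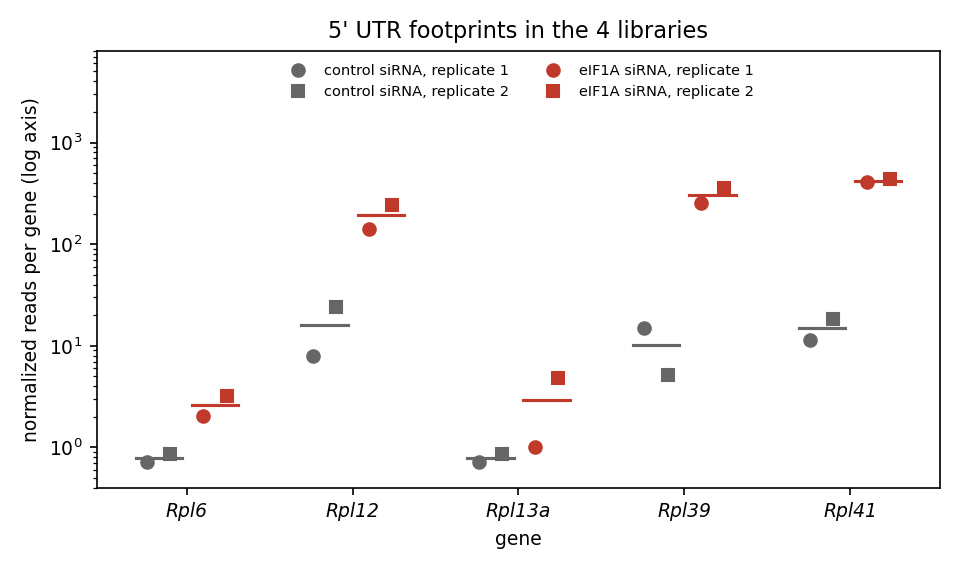
Normalized 5' UTR reads of the 5 genes (log axis) in each library, with symbols, lines and colours as for the coding reads. Rpl12, Rpl39 and Rpl41 lie between 5.19 and 24.2 in the controls and between 141 and 436 in the knockdown libraries, while Rpl6 and Rpl13a lie between 0.717 and 4.79, which is 1 to 3 reads.

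Rpl12, Rpl39 and Rpl41 passed upwards for 5' UTR reads, where 44% of the 2101 genes tested did so and 2.81% fell. Their control values alone, with means of 16.0, 10.1 and 14.8, reached the filter, so none of the 3 entered the test through the knockdown libraries only. The groups did not overlap in these 3 genes, with the knockdown libraries higher, as in 67.4% of all genes, and all genes tested had a median log2 change of 1.09. Relative to that median the changes were 3.83 for Rpl39, 3.69 for Rpl41 and 2.55 for Rpl12. In the 5' UTR fit and the ratio fit, limma's moderation replaced each gene's own variance by the trend's, and the size of these p-values depends on that sharing. With DESeq2, whose size factors from the 5' UTR reads put the median of all genes at 0.00, the log2 changes were 3.67 for Rpl39 (DESeq2 adjusted p = 3.33e-05), 3.74 for Rpl41 (9.22e-21) and 2.44 for Rpl12 (4.61e-07). Of every 1000 listed 5' UTR reads, the 5 genes together took 0.699 and 0.759 in the controls and 8.70 and 7.17 in the knockdown libraries. Almost all came from Rpl12, Rpl39 and Rpl41. These held 48 of 50 and 55 of 57 reads in the controls and 792 of 795 and 647 of 652 after knockdown.

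**Figure D3:**
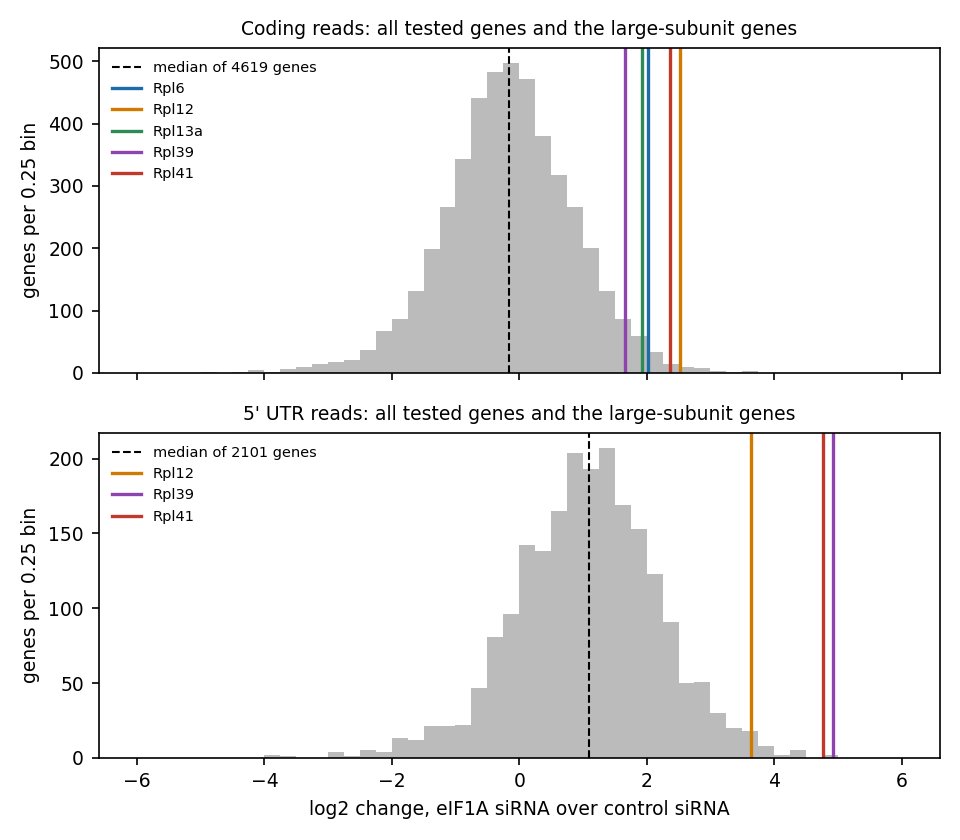
Histograms of the log2 change, eIF1A siRNA over control siRNA, for coding reads (top, 4619 genes) and 5' UTR reads (bottom, 2101 genes), in genes per bin of 0.25, with the median of all genes dashed and the large-subunit genes as coloured lines. Rpl39 and Rpl41 stand at the right end of the 5' UTR panel, at 4.92 and 4.78 against a median of 1.09, and in the coding panel the 5 genes stand between 1.66 and 2.52.

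The share of a gene's footprints that lay on its 5' UTR compares both regions within a library, so library scaling does not enter. In Rpl39 it was 30.0% (95% Clopper-Pearson interval 19.6 to 42.1) and 10.7% (4.03 to 21.9) in the controls and 62.8% (57.8 to 67.5) and 77.4% (72.1 to 82.1) in the knockdown libraries. The exit tunnel gene thus had fewer reads on the leader than on the frame in both controls and more in both knockdown libraries. These intervals cover counting error only.

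In Rpl41 the 5' UTR share was 4.01% (2.31 to 6.43) and 7.89% (4.95 to 11.8) in the controls and 28.9% (26.6 to 31.4) and 22.1% (19.8 to 24.5) in the knockdown libraries. The groups did not overlap, and most of its reads remained coding in all 4 libraries. In Rpl12 it was 16.7% (8.62 to 27.9) and 37.3% (26.4 to 49.3) in the controls and 35.5% (30.8 to 40.5) and 53.1% (47.2 to 59.0) in the knockdown libraries. Knockdown replicate 1 of Rpl12 lay below control replicate 2, so for this gene the groups overlapped. In Rpl6 the share ran from 0.156% to 0.422% over the 4 libraries and in Rpl13a from 0.166% to 1.19%, with no separation of the groups. The median share over 1907 genes was 21.1% and 26.3% in the controls and 33.8% and 52.0% in the knockdown libraries. Rpl41 thus lay below the median gene in all 4 libraries. Counted from the highest share, the knockdown ranks were 1127 and 1695 for Rpl41, 892 and 904 for Rpl12 and 192 and 204 for Rpl39. The lengths of leader and frame also enter a share and were not used here. The ranks and the distance from the median gene are therefore not a measure of leader occupancy per length.

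**Figure D4:**
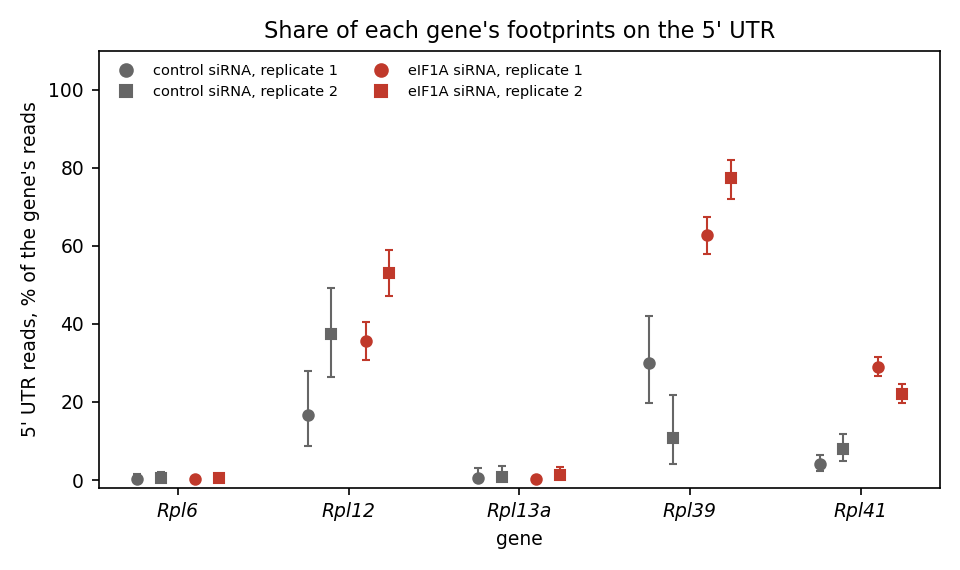
Reads on the 5' UTR as a percentage of each gene's reads in each library, with exact 95% binomial intervals as bars (grey, control siRNA; red, eIF1A siRNA; circles, replicate 1; squares, replicate 2). Rpl39 goes from 10.7% and 30.0% to 62.8% and 77.4% and Rpl41 from 4.01% and 7.89% to 28.9% and 22.1%, Rpl12 overlaps between groups, and Rpl6 and Rpl13a stay under 1.2% in all libraries.

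The change of 5' UTR reads relative to coding reads, as a ratio, was tested over 1907 genes, of which 19.4% passed upwards and 0.0524% downwards. The median log2 change was 1.23, and in 63.9% of these genes both knockdown ratios exceeded both control ratios, as they did in Rpl39 and Rpl41. Rpl39 rose by 3.26 ± 0.80 (SE, limma adjusted p = 0.00238), rank 23 of 1907, and Rpl41 by 2.41 ± 0.76 (SE, limma adjusted p = 0.0160), rank 177. The change of Rpl12 was 1.12 ± 0.80 (SE, limma adjusted p = 0.283) and did not pass, and it stood at -0.11 relative to the median of all genes. In Rpl12 both regions gained reads, by 3.64 on the 5' UTR and 2.52 on the coding sequence on the log2 scale. Both ratio calls ended under quantile normalization, which sets the distributions of the libraries equal within each region (adjusted p = 0.0992 for Rpl39 and 0.272 for Rpl41, at 2.14 and 1.10). They also ended with a single control, where the knockdown pair again gives all of the spread, without control replicate 1 (0.376 and 0.785, at 4.09 and 1.92) and without control replicate 2 (0.491 for both, at 2.43 and 2.91), where limma passed 3 and 0 genes in all (120 and 180 at an unadjusted p under 0.05). Without knockdown replicate 1 Rpl12 passed, at 1.64 (adjusted p = 0.0307).

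The other large-subunit protein genes in the table moved the same way in coding reads. Of a list of 53 symbols, 14 were in the table, the 5 genes above and 9 more, and the rest were not analysed here. Of the 9, 8 were tested and all 8 rose, with a median log2 change of 1.80. Rpl37 rose from 24.6 ± 7.83 to 123 ± 78.4 normalized coding reads (SD, n = 2), a log2 change of 2.15 (limma adjusted p = 0.00158). Rpl36a (1.90) and Rpl4 (1.83), an exit tunnel protein, followed. The lowest rises were those of Rpl11 (1.595), a regulator of Mdm2 when free of the ribosome, Rpl7 (1.49) and Rpl3 (1.16), next to the catalytic centre.

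Rpl3 had 349 and 254 normalized coding reads in the controls and 1048 and 426 in the knockdown libraries, so its lower knockdown value, 426, stood beside a highest control of 349. Its call (limma adjusted p = 0.0270) was lost without the variance trend (0.0870), without control replicate 1 (0.109, log2 change 1.39) or 2 (0.333, 0.94) and without knockdown replicate 1 (0.297, log2 change 0.52). Without control replicate 1 or 2, Rpl7 had log2 changes of 1.72 and 1.26 (adjusted p = 0.0652 and 0.208) and Rpl11 1.63 and 1.56 (0.0655 and 0.136). Without control replicate 2, Rpl36a, Rpl37 and Rpl4 had log2 changes of 2.19, 1.83 and 1.63 (adjusted p = 0.0626, 0.158 and 0.0992). Within this family, Rpl12 and Rpl41 had the highest coding changes and Rpl39 lay among the lower ones. The differences between members were not tested.

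**Figure D5:**
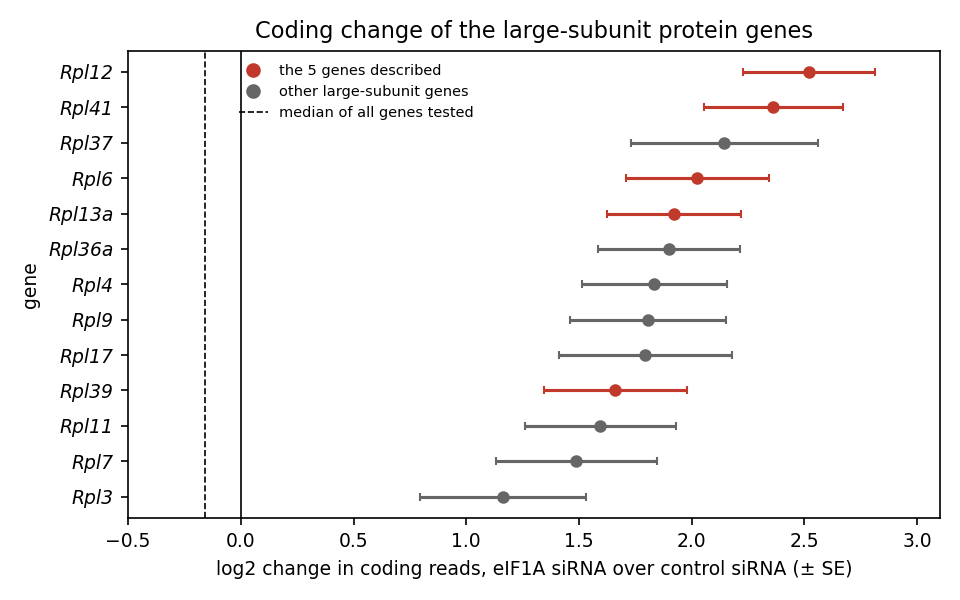
Coding log2 change (eIF1A siRNA over control siRNA) with SE bars for the 13 tested large-subunit protein genes (red, the 5 genes described; grey, the others), with the median of all genes tested dashed at -0.16. All 13 lie above 1, from Rpl3 at 1.16 to Rpl12 at 2.52.

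Reads on the 5' UTR were sparse in most of the other 9 genes. Rpl4 had 1.43 and 2.59 normalized 5' UTR reads in the controls and 34.6 and 20.7 in the knockdown libraries. It and Rpl34 reached the filter only through the knockdown libraries, so their 5' UTR values are given as a description without a test. Rpl3 and Rpl11 had 1 read on the 5' UTR in each of the 4 libraries, as Rpl6 and Rpl13a nearly did.

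Lists of related genes serve as a frame, beside the 10.6% of all 4619 genes that rose in coding reads, the 18.7% that fell and their median of -0.16. All 8 tested small-subunit protein genes, of 35 symbols, rose in coding reads, with a median of 1.97, from Rps27a (1.72) to Rps6 (2.48). Of 42 tested assembly factors of the large subunit, 21 rose, none fell and 21 did not pass, with a median of 1.12. The count of those that rose includes Nip7, Ppan, Mak16, Grwd1 and Bccip, with control means of 4.38 to 9.04. These reached the filter of 10 only through the knockdown libraries, so the count is a description. Nip7, which acts in ribosomal RNA processing, had the highest log2 change (2.72) on 5 to 6 reads in the controls, and it reached the filter only through the knockdown libraries, so no p is given. Eftud1, the GTPase that releases eIF6 from the subunit, had the lowest (-0.72, limma adjusted p = 0.149). Of 28 tested proteins of the mitochondrial large subunit, 14 rose, none fell and 14 did not pass, with a median of 1.19, from Mrpl14 (-0.39) to Mrpl35 (2.43). Here too the count of those that rose includes genes past the filter only through the knockdown libraries. They were Mrpl11, Mrpl37 and Mrpl18, with control means of 7.46, 8.69 and 8.97. Without control replicate 2 the adjusted p was 0.0812 for Mrpl35, 0.0534 for Rps6 and 0.116 for Rps27a, at log2 changes of 2.35, 2.37 and 1.54.

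Profiles were compared for 1837 genes that code for no cytosolic ribosomal protein and averaged 50 normalized coding reads or more. The 5 with coding profiles most like the mean of the 5 genes were Eif1, Hspa9, Ybx3, Ddx21 and Nop2. Likeness was the root mean square difference of log2 values over the 4 libraries, each gene centred on its own mean. It was 0.0931 for Eif1, the start codon stringency factor, 0.108 for Hspa9, the mitochondrial chaperone, 0.109 for Ybx3, a cold shock domain protein, 0.112 for Ddx21, a nucleolar helicase, and 0.154 for Nop2, a ribosomal RNA methyltransferase. The 5 genes themselves lay 0.137 (Rpl13a) to 0.370 (Rpl41) from their mean, and the closest pair was Rpl6 with Rpl13a, at 0.117, and the farthest Rpl39 with Rpl41, at 0.588. Rpl39 and Rpl41, which shared the largest 5' UTR changes, were thus the least alike in coding reads. The nearest genes also gained 5' UTR reads. Eif1 had 56.6 and 56.2 normalized 5' UTR reads in the controls and 784 and 1226 after knockdown (log2 change 4.10). Ybx3 had 30.8 and 31.1 against 221 and 342 (log2 change 3.11). Hspa9, with 5.02 and 6.05 against 88.5 and 171, passed the filter only through the knockdown libraries. Ddx21 and Nop2 were near the floor in the controls.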

How the data were processed

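Ribosome profiling of mouse embryonic fibroblasts was analysed from 1 deposited table, 2 control and 2 knockdown libraries. Per the submitters' processing notes, cutadapt, Bowtie, TopHat2, HTSeq and DESeq2 were used on build mm10, with no versions, roles or order. The deposited signal gives each gene's normalized reads on the 5' UTR and on the coding sequence, per the file headers. Dividing each column by its lowest value, which 1 read is worth (0.717 and 0.864 in the controls, 1.02 and 1.596 after knockdown), gave whole reads for 100% of values, with a tolerance of 0.001. Every gene had at least 26 reads in some library, as a filter would leave it, so totals are those of listed genes.

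Log2 of the normalized read number plus 1 was tested with limma 3.58.1 in R 4.3.3 (empirical Bayes with trend, Benjamini-Hochberg over all genes tested, threshold 0.05) for genes with a mean of at least 10, in both regions for the ratio. The 1 added before the logarithm understates changes of genes with low values. Alternatives changed the pseudocount, filter, scaling, trend, libraries and replicate block, or used edgeR 4.0.16 (authors' scaling) and DESeq2 1.42.0 (its own size factors) on whole reads. The procedure was tested on simulated reads. The genes and lists were chosen with earlier results of these data known. The genes named beside the 5 were the 3 highest and 3 lowest coding changes of the large-subunit list, the highest and lowest of the other lists, and the 5 most alike profiles. Levels per codon and a group of short frames were planned and not run, since coding lengths were not used here.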

Additional observations from a re-analysis of the deposited data

How the results depend on the processing

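Over 22 named genes and all alternatives, 565 of 621 values kept their direction and their side of the threshold, 43 lost it, 11 gained it and 2 changed sign, both under quantile normalization and neither called: the ratio of Rpl12 (-0.031) and of Ybx3 (-0.033). The 5 genes kept all coding calls except without a control, where 4 and 0 were called without control replicates 1 and 2. The 5' UTR calls of Rpl12, Rpl39 and Rpl41, the only ones of them tested there, held in every alternative, with log2 changes of 2.44 to 5.61. Of the ratio calls 0 remained under quantile normalization and without either control, and 3 were called without knockdown replicate 1 (range 0 to 3).

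Of all genes, 1352 were called for coding reads, 488 higher and 864 lower, against 695 and 694 with quantile normalization and 490 and 498 with DESeq2. The count was 788 with a filter at 50 and 11 to 1729 with 1 library left out. For the 5' UTR, 983 were called, 924 higher and 59 lower, against 452 and 375 with quantile normalization, 365 with DESeq2 (143 and 222), 232 with a filter at 50 and 189 to 1396 with 1 library left out. For the ratio, 371 were called, 629 without a filter, 111 with a filter at 50, 1 with quantile normalization and 0 to 1175 with 1 library left out.

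Same-numbered libraries deviated together with r = 0.261 across genes for coding and -0.06 for 5' UTR reads, and 2 pairs do not show pairing. With the replicate block 1921, 1258 and 851 genes were called for coding, 5' UTR and ratio, and the 5 genes' calls did not change. Levels per codon were not run. Leader reads of Rpl6 and Rpl13a, at 1 to 3 per library, set the limit of depth.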

Other observations

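Rpl34, a large-subunit protein singled out after its values were seen, had its reads almost wholly on the 5' UTR in every library. On the 5' UTR, Rpl34 had 6 and 6 control reads against 28 and 25 after knockdown, or 4.30 and 5.19 against 28.5 and 39.9 normalized reads. It reached the filter for 5' UTR reads only through the knockdown libraries and its coding value not at all, so no test is given. Rps27a, a small-subunit protein made as a fusion with ubiquitin, had 3.58 and 6.05 normalized 5' UTR reads in the controls and 68.1 and 78.2 after knockdown, likewise past the filter only through the knockdown libraries and given without a test.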
